A study of Homo sapiens with 28 samples.

Results

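In AN3CA endometrial carcinoma cells, an established human line, 484 of 32972 accessible regions were open with wild-type ARID1A and wild-type ARID1B, were not called with the empty vector, and stayed called when ARID1A carried a mutated ARID domain or lacked IDR1. They are named kept regions here. To find them, each of 28 peak lists was trimmed to its 19433 most significant peaks on chromosomes 1 to 22 and X, overlapping peaks were joined into regions, and those called in 2 or more lists were retained. A region counted as gained if both ARID1A_WT and both ARID1B_WT libraries called it and none of the 4 Empty_vector libraries did, which held for 1905 regions (5.78% of all regions). A gained region counted as kept if both ARID1A_DBDmut and both ARID1A_delIDR1 libraries also called it (1.47% of all regions). The kept regions were thus chosen by the calls, and so the ranks, of these 12 libraries, and their values in those libraries are a description. The tests below use the other 16 libraries.

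Accessibility was assayed with ATAC-seq: a transposase inserts adapters into open DNA, and peaks mark where the reads pile up. Each library has 1 peak list. Altered ARID1A came as ARID1A_DBDmut (a mutant of the ARID domain), ARID1A_delIDR1 and ARID1A_CBR (truncations), ARID1A_DDX4 (a hybrid with a disordered region named for DDX4), ARID1A_Y42S and ARID1A_AQGscramC1C2. Altered ARID1B came as ARID1B_S320_G327del, ARID1B_A457_G461del, ARID1B_Block13del and ARID1B_Block9del. The altered constructs, ARID1A_WT and ARID1B_WT have 2 libraries each, and Empty_vector has 4. All were made in AN3CA cells grown alike, and the labels give neither the promoter of the constructs, nor their protein level, nor whether a line is 1 clone, nor whether replicates are separate cultures. The p-values that compare constructs therefore measure only how far these samples differ from each other, which may be technical. Those that compare kept with other gained regions measure only how evenly that difference holds over these constructs, which may be technical too. In the 10 libraries of ARID1A_AQGscramC1C2, ARID1A_Y42S, ARID1B_A457_G461del, ARID1B_Block13del and ARID1B_Block9del the genotype label names the empty vector while title and peak names carry the construct, and the title was followed.

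ARID1A and ARID1B are large subunits that replace each other in canonical BAF (cBAF), a SWI/SNF complex that uses ATP to move nucleosomes and keeps distal enhancers open. Both carry an ARID domain, which binds DNA with little sequence preference, and long intrinsically disordered regions (IDRs), protein stretches without a fixed fold that can draw molecules into condensates. DDX4 is a germline RNA helicase whose disordered region is widely used as a condensate-forming sequence. ARID1A is among the genes most often mutated in endometrial carcinoma.

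On the chromosomes used, the shortest list had 19433 peaks (ARID1A_Y42S 2) and the longest 76530 (ARID1A_WT 1). They contain no read counts, so the depth is unknown. Date codes in the peak names divide the libraries into 6 date groups, A to F. Whether a code dates the library, its sequencing or the peak calling is not stated, so a shared code need not mean a shared batch. In date groups A and B there is 1 library each of ARID1A_DBDmut, ARID1A_delIDR1, ARID1A_CBR, ARID1A_WT and Empty_vector, and date group C holds both libraries of ARID1B_S320_G327del and ARID1B_WT with 2 of Empty_vector. ARID1A_DDX4 is alone in date group D and ARID1A_AQGscramC1C2 alone in F, so these constructs and their date groups cannot be told apart. Date group E holds ARID1A_Y42S and the other ARID1B deletions, with no wild-type or Empty_vector library.

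In the lists that chose them, the kept regions ranked lower with the altered proteins than with wild-type ARID1A. Rank 1 is the most significant peak of a list. The median rank of the 484 kept regions was 12101 and 12731 in the ARID1A_DBDmut libraries, and 11346 and 11288 in the ARID1A_delIDR1 libraries, against 8398 and 8564 in the ARID1A_WT libraries. In ARID1B_WT it was 7381 and 6548. Compared library by library within a date group, ARID1A_DBDmut ranked 419 of the 484 below ARID1A_WT in date group A and 423 in B, with median rank differences of 2993 and 3556. ARID1A_delIDR1 ranked 362 below ARID1A_WT in each of them, with median differences of 2514 and 2312. Set side by side, ARID1A_DBDmut ranked 272 of the 484 below ARID1A_delIDR1 in date group A and 308 in B. Such counts were made for the kept regions only. The other gained regions, where listed, also ranked lower with the altered proteins. Their medians were 22933 and 23462 in ARID1A_DBDmut and 24350 and 24277 in ARID1A_delIDR1, against 13474 and 13594 in ARID1A_WT. By the rule, each of these regions missed the rank limit in an ARID1A_DBDmut or ARID1A_delIDR1 library. Their lower ranks there were thus partly fixed in advance and do not show what is particular to the kept regions. These are ranks in libraries that chose the regions, read across lists of different lengths (58540 and 48799 peaks in ARID1A_DBDmut, 43130 and 55267 in ARID1A_delIDR1, 76530 and 62031 in ARID1A_WT).

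The fold enrichment of the peaks, which is the authors' own value over the caller's background, was not lower with these alterations than with wild-type ARID1A at the kept regions. The median was 5.80 and 5.69 in ARID1A_DBDmut and 5.92 and 6.24 in ARID1A_delIDR1, against 5.65 and 5.58 in ARID1A_WT, and 6.54 and 6.98 in ARID1B_WT. At the other gained regions, where listed, the median was lower with the alterations. It was 4.94 and 4.88 in ARID1A_DBDmut and 4.74 and 5.27 in ARID1A_delIDR1, against 5.51 and 5.38 in ARID1A_WT. The calls of these libraries divided the gained regions into the 2 sets, so both patterns are a description. Fold enrichments of separate lists depend on depth and were not compared further.

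**Figure D1:**
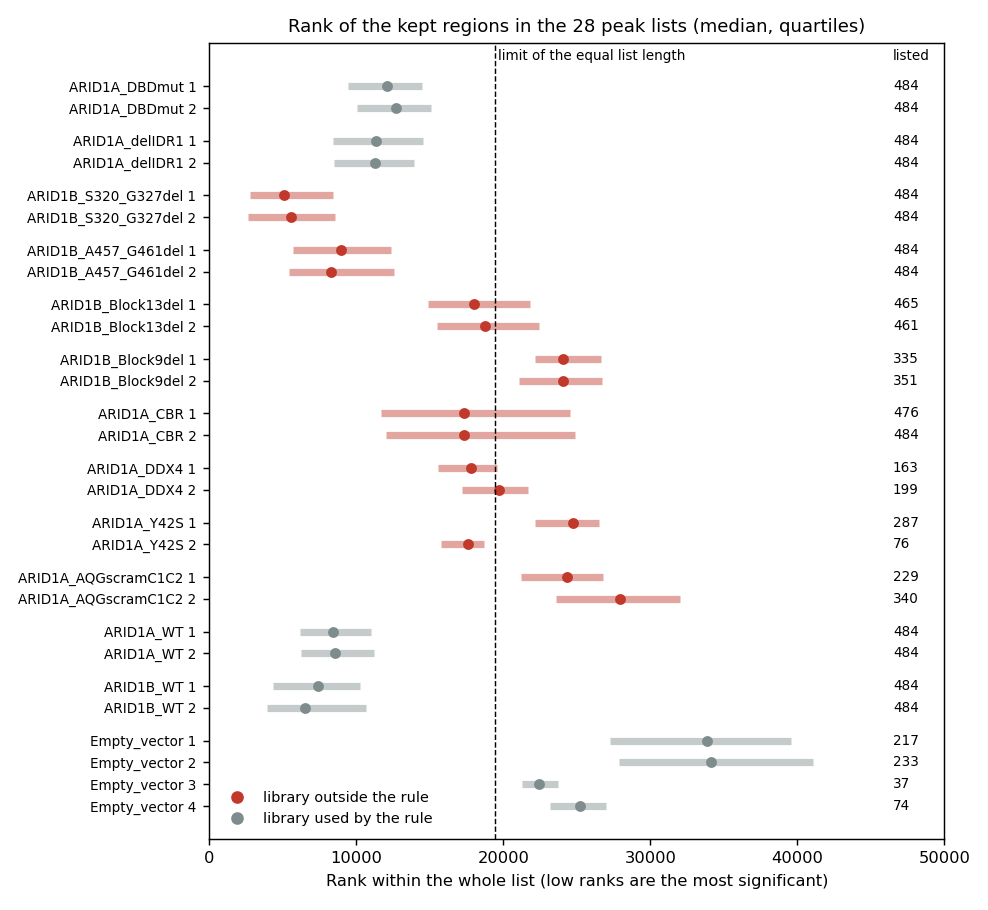
Rank of the kept regions in each of the 28 peak lists at full length; points are medians and bars run between the quartiles over the kept regions listed, whose number stands at the right. The dashed line is the equal list length of 19433 peaks; the 4 Empty_vector lists hold 217, 233, 37 and 74 of the 484 kept regions, all beyond it.

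The ranks of kept and other gained regions lay close to each other on both sides of the threshold of the rule. Just inside it, chr1:159885531-159886621 had rank 19396 in ARID1A_delIDR1 2, chr11:4065206-4066877 had rank 19394 in ARID1A_DBDmut 2, and chr10:75666265-75667072 had rank 19336 in ARID1A_delIDR1 1. Just outside it, chr17:71274373-71275326 had rank 19448 in ARID1A_DBDmut 2, chr2:173647397-173648432 had rank 19451 in ARID1A_delIDR1 1, and chr8:129806417-129807616 had rank 19457 in ARID1A_DBDmut 1. Coordinates are hg19, and the genes near the regions were not assigned here.

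The 8 constructs whose calls did not choose the kept regions called very different shares of them. Their lists did enter the merging of peaks into regions. The shortest list, ARID1A_Y42S 2, set the equal length and was itself scored at full length. ARID1B_S320_G327del called 97.3% and 98.8% of the kept regions and ARID1B_A457_G461del 95.5% and 94.6%. ARID1A_CBR called 57.4% and 57.9%, and ARID1B_Block13del 57.0% and 52.3%. ARID1A_DDX4 called 24.4% and 20.2%. The lowest shares were those of ARID1A_Y42S at 6.61% and 15.7%, ARID1B_Block9del at 7.64% and 11.4%, and ARID1A_AQGscramC1C2 at 8.47% and 7.44%. The shares of ARID1A_CBR and ARID1B_Block13del lay within 6 percentage points of each other, and the libraries of the 3 lowest constructs overlapped. The 95% Wilson interval of a share near the middle, such as the 57.4% of ARID1A_CBR 1, ran from 53.0% to 61.8%, and covers counting error only.

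These shares were set against the background of the same call. Both ARID1B_S320_G327del libraries called 468 kept regions (96.7%), where they called 50.6% of all regions and 50.3% of the 10141 regions that no Empty_vector library called. Both ARID1B_A457_G461del libraries called 448 (92.6%), against 51.4% of all regions and 31.2% of those without an Empty_vector call. For ARID1A_CBR the number was 249 (51.4%), against 52.9% and 8.91%. For ARID1B_Block13del it was 201 (41.5%), against 52.0% and 5.94%. The share of ARID1A_CBR was thus near that over all regions, and above that over regions that share the lack of an Empty_vector call.

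The other 4 constructs called few kept regions in both of their libraries. ARID1A_DDX4 called 66 (13.6%), where it called 51.0% of all regions and 4.19% of those without an Empty_vector call. ARID1A_AQGscramC1C2 called 25 (5.17%), against 53.8% and 1.70%. ARID1A_Y42S called 24 (4.96%), against 48.9% and 2.06%. ARID1B_Block9del called 21 (4.34%), against 53.2% and 2.22%. All 4 were far below their share of all regions. They were above their share of regions without an Empty_vector call, which was itself low, by less than 10 percentage points. Mean shares of ARID1A_DDX4 and ARID1A_Y42S depended on how lists were trimmed: they were 22.3% and 11.2% as given, 1.93% and 3.83% of the 4683 regions kept with whole lists, and 54.9% and 40.1% of the 142 kept with lists of equal covered length. The mean share of ARID1B_Block9del, 9.50% as given, was 19.7% with whole lists, 18.0% with equal covered length, 19.9% with peaks ranked by fold enrichment and 4.95% with lists of 9716 peaks. That of ARID1B_Block13del, 54.6% as given, was 26.9% with lists of 9716 peaks and 32.6% when a peak had to cover at least 50% of the region.

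The kept regions were called more often than the other 1421 gained regions by each of these constructs. ARID1A_CBR called 57.6% ± 0.292 of the kept regions, against 6.26% ± 0.498 of the other gained regions (SD, n = 2 libraries, here and below). For ARID1B_Block13del the shares were 54.6% ± 3.36 of the kept and 23.0% ± 1.69 of the other gained regions. For ARID1A_DDX4 they were 22.3% ± 2.92 and 2.11% ± 0.199. The difference was small for ARID1B_S320_G327del, which called nearly all gained regions, with 98.0% ± 1.02 of the kept and 93.4% ± 0.299 of the others. Over the 8 constructs the kept regions exceeded the other gained regions by 18.8 percentage points on average (SD 15.9, positive in 8 of 8 constructs). The exact sign-flip test over constructs, two-sided, gave p = 0.00781, the smallest it can give (0.0156 after adjustment over the 4 main tests). Sign-flip p-values printed below without an adjusted value were not adjusted. All 8 constructs were scored on the same regions, so they are not independent. Here and in the sign-flip tests below, the p-value says only how far the sign of the difference was shared. At full length, Empty_vector lists too held more of the kept than of the other gained regions (29.0% and 10.3% on average).

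**Figure D2:**
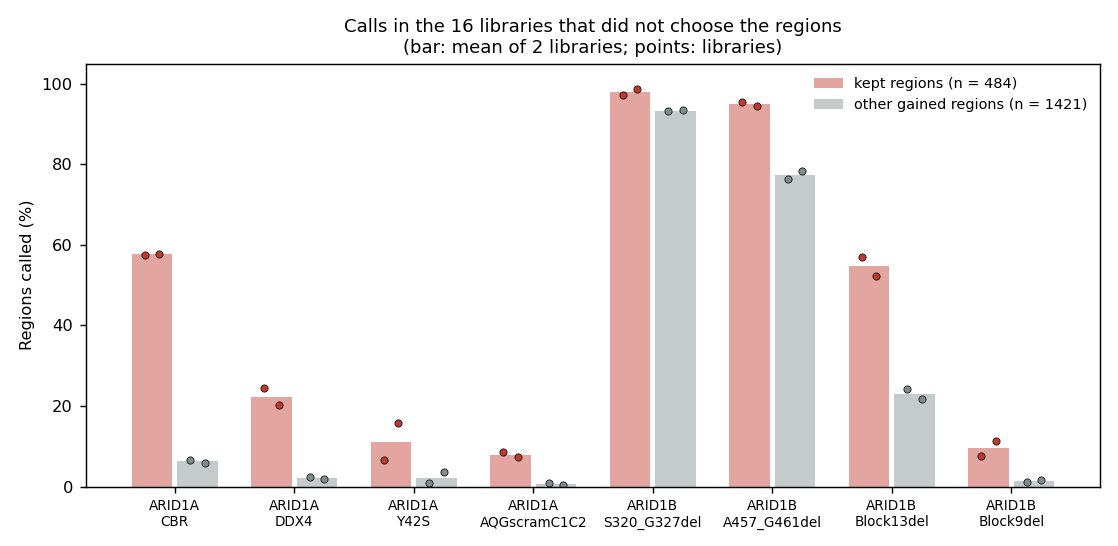
Percent of kept regions (red) and of other gained regions (grey) called by each of the 8 constructs outside the rule; bars are means of 2 libraries and points the libraries. Every red bar is higher than the grey bar beside it, from 98.0% and 93.4% for ARID1B_S320_G327del to 7.95% and 0.563% for ARID1A_AQGscramC1C2.

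ARID1A_CBR gave the largest of these differences, at 51.4 percentage points, followed by ARID1B_Block13del at 31.6, ARID1A_DDX4 at 20.2 and ARID1B_A457_G461del at 17.7. The differences were 8.94 points for ARID1A_Y42S, 8.13 for ARID1B_Block9del, 7.39 for ARID1A_AQGscramC1C2 and 4.65 for ARID1B_S320_G327del. ARID1A_CBR carries the date codes of groups A and B, which also hold the ARID1A_DBDmut and ARID1A_delIDR1 libraries of the rule. Without the constructs of date groups A to C the mean difference over the remaining 6 was 15.7 points (exact sign-flip test, two-sided, p = 0.0312, the smallest possible with 6 constructs).

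The kept regions tended to be the stronger gained regions in the wild-type libraries, which the rule used, so this is a description. Ordered by mean wild-type rank, the 1905 gained regions were divided into 4 rank groups of nearly equal size. The first (mean ranks 852 to 8365) held 267 kept regions among 477. The second held 115 of 476, the third 70 and the last (13585 to 18753) 32. The comparison was therefore repeated within these rank groups. The mean difference was then 15.7 percentage points (SD 16.6, positive in 8 of 8 constructs; exact sign-flip test, two-sided, p = 0.00781, adjusted 0.0156). It was 53.9 points for ARID1A_CBR and 21.7 for ARID1A_DDX4, about as without the rank groups. It was smaller than without them for ARID1B_Block13del, at 15.3 points, for ARID1B_A457_G461del, at 10.3, and for ARID1B_S320_G327del, at 0.711. In the third rank group ARID1B_S320_G327del called fewer of the kept (92.9%) than of the other gained regions (96.1%), and in the first 100% of both. The rank groups are wide, so wild-type rank was matched only coarsely.

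The constructs differed in how their calls went with wild-type rank. Among the kept regions, ARID1A_CBR called 53.6% in the first rank group, 63.0% in the second, 62.9% in the third and 60.9% in the last. ARID1A_DDX4 called 21.5%, 22.2%, 22.9% and 28.1%. Neither share was highest where the wild-type peaks were strongest. ARID1B_Block13del called 70.0% in the first rank group and 41.7%, 29.3% and 28.1% in the others. ARID1B_A457_G461del called 98.7%, 93.0%, 91.4% and 79.7%. The last rank group rests on 32 kept regions, and these differences between rank groups were not tested.

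For ARID1A_CBR, ARID1A_DDX4, ARID1B_A457_G461del and ARID1B_Block13del, the share called was higher at each further ARID1A_DBDmut or ARID1A_delIDR1 library that called a gained region. For the other constructs the order was not strict. ARID1A_CBR called 0.475% of the 631 gained regions that none of those 4 libraries called, 2.56% of the 234 called by 1, 8.79% of the 347 called by 2, 23.7% of the 209 called by 3, and 57.6% of the kept regions, called by 4. ARID1B_A457_G461del called 70.9%, 77.1%, 82.3%, 89.0% and 95.0% along the same order. ARID1B_Block13del called 17.7%, 21.8%, 26.7%, 34.2% and 54.6%. ARID1A_DDX4 called at most 5.02% of the gained regions with 3 or fewer such libraries, against 22.3% of the kept regions. Set only against the 209 regions called by 3 of the 4 libraries, the kept regions were called more often by 12.5 points (8 constructs; exact sign-flip test, two-sided, p = 0.00781).

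**Figure D3:**
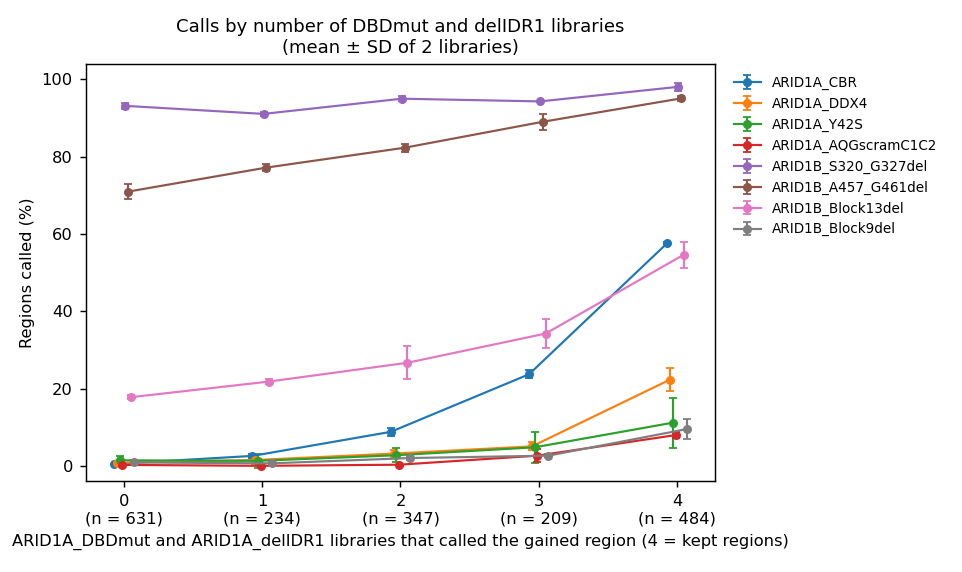
Percent of gained regions called by each of the 8 constructs, by how many of the 4 ARID1A_DBDmut and ARID1A_delIDR1 libraries called the region; points are means and bars the SD of 2 libraries. ARID1A_CBR climbs from 0.475% at 0 libraries to 57.6% at 4, the kept regions, and ARID1B_S320_G327del stays above 91.0% throughout.

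Gained regions that kept their call with only 1 of the altered ARID1A proteins were also called less often than the kept regions. Of the gained regions, 177 were called by both ARID1A_DBDmut libraries and no ARID1A_delIDR1 library, and 128 by both ARID1A_delIDR1 libraries and no ARID1A_DBDmut library. ARID1A_CBR called 57.6% of the kept regions, against 1.41% ± 0.399 of the 177 and 19.1% ± 1.66 of the 128. ARID1A_DDX4 called 22.3% of the kept regions, against 2.54% ± 0.399 of the 177 and 3.12% of the 128 in each library. Over the 8 constructs the kept regions exceeded the 177 by 16.6 points and the 128 by 17.3 points (exact sign-flip tests, two-sided, p = 0.00781 each). These comparisons were chosen after seeing the data.

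ARID1B deletions and ARID1A alterations overlapped widely in the share of kept regions they called. The 4 ARID1B deletions averaged 64.3% ± 41.5 (SD, n = 4 constructs) and the 4 ARID1A alterations 24.8% ± 22.8 (SD, n = 4 constructs). The difference of 39.5 points did not pass the exact permutation test over constructs (two-sided, p = 0.229, adjusted 0.229; the smallest possible is 0.0286). The ARID1B deletions held both the highest share and 1 of the lowest, that of ARID1B_Block9del at 9.50% ± 2.63.

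Within date group E, which holds 4 constructs of 1 date code, the shares of kept regions differed between constructs. ARID1B_A457_G461del called 95.0% ± 0.584, ARID1B_Block13del 54.6% ± 3.36, ARID1A_Y42S 11.2% ± 6.43 and ARID1B_Block9del 9.50% ± 2.63 (SD, n = 2 libraries each). The F statistic over the 8 libraries was 222 (exact permutation test, p = 0.0286, adjusted 0.0381; smallest possible 0.00952). ARID1B_A457_G461del and ARID1B_Block13del were separated from each other and from the remaining pair, while ARID1A_Y42S and ARID1B_Block9del overlapped. The ARID1A_Y42S libraries differed from each other more than those of the other constructs in the group, and their lists had 28855 and 19433 peaks.

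Beyond the equal list length the order of the constructs changed. At full length, both libraries of ARID1B_S320_G327del and ARID1B_A457_G461del listed all 484 kept regions, and ARID1A_CBR listed 476 and 484. ARID1B_Block13del listed 96.1% and 95.2% of them, ARID1B_Block9del 335 and 351 of the 484, ARID1A_AQGscramC1C2 229 and 340, ARID1A_Y42S 287 and 76, and ARID1A_DDX4 163 and 199. Of all regions, the full lists held 93.2% on average for ARID1B_S320_G327del, 92.7% for ARID1B_A457_G461del, 87.2% for ARID1A_CBR, 80.9% for ARID1B_Block13del, 74.8% for ARID1B_Block9del, 75.4% for ARID1A_AQGscramC1C2, 63.5% for ARID1A_Y42S and 61.9% for ARID1A_DDX4. The kept regions were thus listed less often than all regions by the last 4 of these constructs on average, and more often by the others. The low shares of ARID1B_Block9del at equal length thus go with peaks that were listed at ranks beyond the limit, at medians of 24077 and 24041. ARID1A_DDX4 listed fewer kept regions than ARID1B_Block9del at full length although it called more of them at equal length; its lists had 21094 and 23559 peaks, against 30104 and 30102 in those of ARID1B_Block9del.

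The kept regions were not without signal in the empty vector. At full length Empty_vector 1 and 2 listed 44.8% and 48.1% of them (45227 and 49468 peaks, date groups A and B), and Empty_vector 3 and 4 listed 7.64% and 15.3% (24527 and 28314 peaks, date group C). The same 4 lists held 79.3%, 80.2%, 65.9% and 70.7% of all regions, and from 10.6% (Empty_vector 3) to 35.8% (Empty_vector 2) of the 10141 regions without an Empty_vector call at equal length. Of the 484, 236 (48.8%) were in none of the 4 lists and 26 in all 4. Of the other gained regions, 1136 (79.9%) were in none. A weak peak in the Empty_vector cells was thus listed at 248 kept regions, at median ranks of 33861, 34117, 22403 and 25214 in the 4 lists. Signal below the caller's threshold is not recorded, so absence from a list is no measure of closed chromatin.

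Constructs that called few kept regions called mainly those with such a weak peak. ARID1A_DDX4 called 36.7% of the 248 kept regions in an Empty_vector list, against 7.20% of the 236 in none. ARID1A_AQGscramC1C2 called 14.5% and 1.06%, ARID1A_Y42S 17.7% and 4.24%, and ARID1B_Block9del 15.1% and 3.60%, in the same order. ARID1A_CBR called 71.8% and 42.8%. The shares of the remaining constructs differed by 5 points or less, at 52.2% and 57.2% for ARID1B_Block13del, 94.4% and 95.8% for ARID1B_A457_G461del, and 97.6% and 98.5% for ARID1B_S320_G327del. This split was made after seeing the data and was not tested. Among gained regions in no Empty_vector list, the 236 kept ones still exceeded the rest by 13.8 points over the 8 constructs (exact sign-flip test, two-sided, p = 0.00781). Within rank groups of these regions the excess was 9.52 points and not positive in every construct (exact sign-flip test, two-sided, p = 0.0156).

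**Figure D4:**
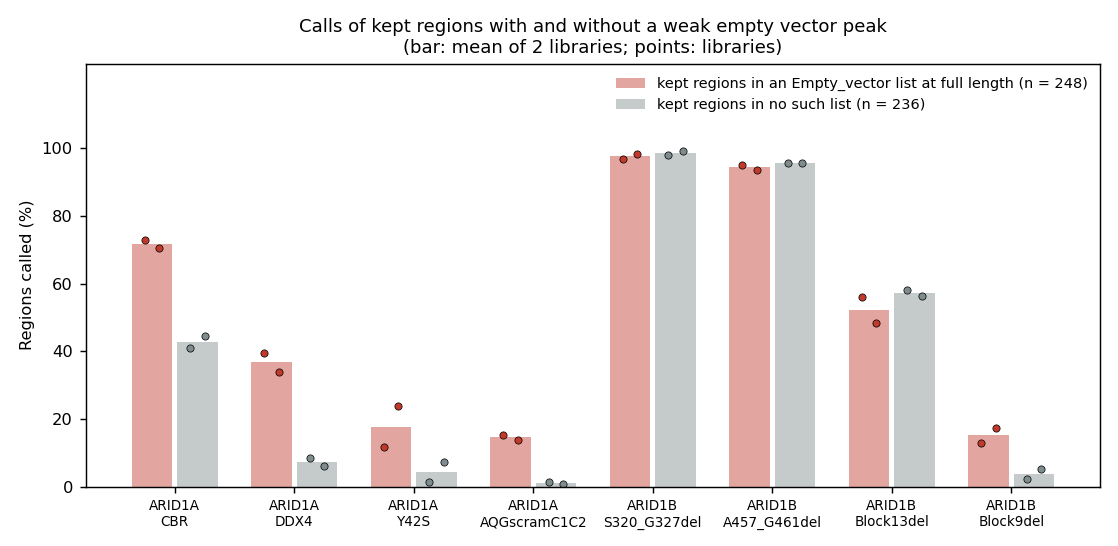
Percent of kept regions called by each construct, for the 248 that an Empty_vector list holds at full length (red) and the 236 that none holds (grey); bars are means of 2 libraries and points the libraries. For ARID1A_DDX4 the bars stand at 36.7% and 7.20%, for ARID1B_A457_G461del at 94.4% and 95.8%.

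Seen region by region, 4 patterns of calls were the most frequent. Counting a construct where both of its libraries called the region, 115 kept regions (23.8%) were called by ARID1B_S320_G327del and ARID1B_A457_G461del alone among the 8 constructs. A further 106 (21.9%) were called by these and ARID1A_CBR, 90 (18.6%) by these and ARID1B_Block13del, and 57 (11.8%) by all 4. Together with 40 rarer patterns they make up the 484. The patterns were not counted over other regions. Both libraries of ARID1B_S320_G327del called 89.7% of the other gained regions, those of ARID1B_A457_G461del 70.3%, of ARID1B_Block13del 12.5% and of ARID1A_CBR 4.57%. Where ARID1A_DDX4 called a kept region in both libraries, ARID1A_CBR did so in 53 of 66 cases (80.3% of the ARID1A_DDX4 calls, 21.3% of the 249 of ARID1A_CBR). Over all 484 kept regions, both ARID1A_CBR libraries called 51.4%. ARID1B_Block13del shared 99 regions with ARID1A_CBR, 49.3% of its own 201 and 39.8% of those of ARID1A_CBR.

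By number of libraries, a kept region was called by a median of 6 of the 16 (quartiles 5 and 8), and another gained region by a median of 4 (quartiles 3 and 5). There were 42 kept regions called by 12 or more libraries, of which 39 were in an Empty_vector list, and 8 called by 3 or fewer. Of the other 1421 gained regions, 3 were called by 12 or more and 422 by 3 or fewer. Over all 32972 regions the median was 10 libraries, with 14984 called by 12 or more and 9135 by 3 or fewer.

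The kept region of best mean rank in the 8 wild-type, ARID1A_DBDmut and ARID1A_delIDR1 libraries lay at chr8:81279030-81280190. Its ranks were 2521 and 3834 in ARID1A_DBDmut and 1461 and 640 in ARID1A_delIDR1, against 1380 and 765 in ARID1A_WT and 1074 and 754 in ARID1B_WT. It was called by all 16 libraries outside the rule, with ranks from 309 in ARID1B_S320_G327del 2 to 15113 in ARID1A_Y42S 1. In the Empty_vector lists it appeared at ranks 27727, 29585, 24166 and 25030. Its peak was thus within the equal length in every library with a construct, and beyond it in the 4 Empty_vector libraries. The only other kept region called by all 16 libraries, chr10:105667753-105668716, had Empty_vector ranks of 36088, 27030, 22188 and 21873.

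The second by rank, chr6:15504299-15505918, had ranks of 2991 and 3618 in ARID1A_DBDmut and 2647 and 3132 in ARID1A_delIDR1, against 509 and 815 in ARID1A_WT and 1382 and 706 in ARID1B_WT. No Empty_vector list held it at any rank, and 11 of the 16 other libraries called it. In the ARID1A_AQGscramC1C2 lists it stood at 19751 and 22452, just beyond the limit in the first. ARID1A_DDX4 listed it in 1 library, at rank 18128.

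Other strong kept regions showed the same range. chr5:141289387-141290345 had ranks of 475 and 1385 in ARID1A_WT and was called by 9 of the 16 libraries; no ARID1A_DDX4 or Empty_vector list held it. chr1:17858059-17859000 was called by 14 libraries and chr20:50072911-50074045 by 13, with peaks in 3 and 2 Empty_vector lists. chr8:102063465-102064639 was called by 15 libraries and was in all 4 Empty_vector lists, at ranks from 24215 to 26126. The remaining members of the 12 best by rank, at chr5:38783130-38783859, chr12:50262732-50263644, chr10:69913219-69914142, chr5:158667112-158667886, chr8:131495285-131496370 and chr2:86299246-86300281, were called by 9 to 12 libraries. Among these 6, chr2:86299246-86300281 alone was in an Empty_vector list, 1 of the 4.

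At the other end, chr7:2680499-2681628 was called by a single library outside the rule, ARID1B_S320_G327del 2, at rank 12906. Its ranks were 10722 and 14317 in ARID1A_DBDmut and 11652 and 12489 in ARID1A_delIDR1, against 8886 and 9115 in ARID1A_WT and 11451 and 12103 in ARID1B_WT. It stood at 20273 and 23471 in ARID1A_CBR and at 24330 and 21462 in ARID1B_A457_G461del, and was in no list of ARID1B_Block13del, ARID1B_Block9del, ARID1A_DDX4, ARID1A_Y42S, ARID1A_AQGscramC1C2 or Empty_vector. chr18:67800036-67800780 and chr7:149417201-149418023 were called by 2 libraries each. The first was called by both ARID1B_S320_G327del libraries, at ranks 7022 and 6920. The second was called by both ARID1A_CBR libraries, at 13258 and 18364, while ARID1B_S320_G327del listed it at 30039 and 33304. chr5:60597251-60599319 and chr6:4313325-4313936 were called by 3 libraries each, as were 3 further kept regions of lower mean rank.

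The kept regions were spread over the autosomes and X much as the other gained regions were. They had a median width of 1050 bp (range 525 to 2698 bp), against 945 bp for the other gained regions. Chromosome 5 held 52 of them (10.7%), against 12.4% of the other gained and 6.75% of all regions, and chromosome 7 held 49 (10.1%), against 9.01% and 6.06%. Chromosome 12 held 30 (6.20%), against 3.52% and 4.81%, and there 37.5% of the gained regions were kept. Chromosome 19 held 5 (1.03%), against 1.69% and 4.82%. The copy number of AN3CA chromosomes was not analysed here, and these shares were not tested.

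**Figure D5:**
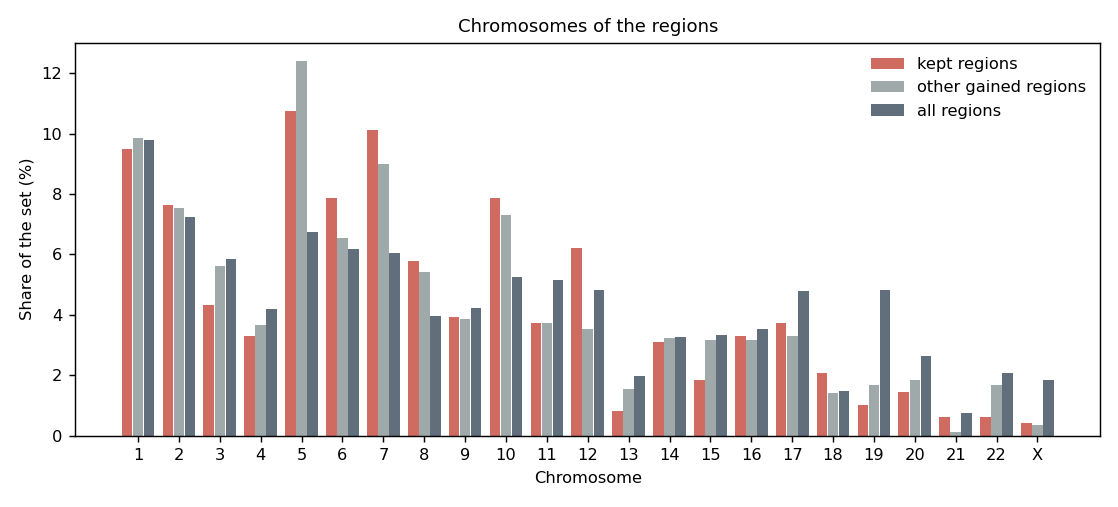
Share of the kept regions (red), of the other gained regions (grey) and of all regions (dark) on each chromosome, in percent of each set. Chromosomes 5 and 7 hold 10.7% and 10.1% of the kept regions, and chromosome 19 holds 1.03%, against 4.82% of all regions.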

How the data were processed

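ATAC-seq peak lists of 28 AN3CA libraries were used, with peaks called separately for each library. The submitters' processing notes name bcl2fastq, Bowtie2, MACS2, SAMtools 0.1.19 and Picard 2.8.0 with build hg19. Options and control of the peak caller: not given in the sources used here. Every peak of the deposited lists has a score, a fold enrichment (a ratio), and the -log10 of its p-value and of its q-value. These are the authors' own values and were used to rank peaks within a list. The title of the series names ATAC-seq while its design text describes CUT&Tag, and the lists were taken as ATAC-seq.

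Peaks on chromosomes 1 to 22 and X were ranked by -log10 p-value and trimmed to 19433 per list. Overlapping peaks (1 bp or more) of all lists were merged, and a library called a region if 1 of its peaks overlapped it. Shares called were averaged per construct. Kept and other gained regions were compared by exact sign flips over the 8 constructs outside the rule, also within 4 groups of mean wild-type rank. ARID1B and ARID1A constructs, and the constructs of date group E, were compared by exact permutation. The p-values of these 4 main tests were adjusted after Benjamini and Hochberg, and those of further comparisons were not. The scripts (Python 3.11.15, numpy 2.4.6, pandas 2.3.3, scipy 1.17.1, matplotlib 3.10.9) were tested on simulated data. Alternatives covered list length, ranking, overlap, each library left out, date groups, units and a replicate block.

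Kept regions share the libraries they were called in, so they are not replicates, and tests count constructs or libraries. The kept regions and the lists of comparisons were chosen with earlier results of these data known. Regions named are the 12 of best mean rank in the 8 libraries of the rule that call them, those called by all 16 other libraries, the 5 called by fewest (ties taken in order of mean rank), and 3 on each side of the rank limit. No hg19 genome or annotation was used here, so genes, motifs and sequences are not given and the cell line was not checked against marker genes. Replicate lists shared at most 0.301% identical peaks, so none was counted as a duplicate.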

Additional observations from a re-analysis of the deposited data

Results flagged for a closer look

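Peaks beyond the equal list length were not part of the comparisons. At full length 5 constructs listed the kept regions more often, in both of their libraries, than any Empty_vector library did. ARID1B_S320_G327del listed 100% of them and ARID1B_A457_G461del 100%. ARID1A_CBR listed 99.2% on average, ARID1B_Block13del 95.7% and ARID1B_Block9del 70.9%, against 29.0% ± 20.5 for Empty_vector (SD, n = 4). Of all regions the same lists held 93.2%, 92.7%, 87.2%, 80.9% and 74.8% on average, in the order of the constructs above, and 74.0% ± 6.89 for Empty_vector, so ARID1B_Block9del listed the kept regions less often than all regions. The Empty_vector share is lowered by the rule, which left out every region that an Empty_vector library called at equal length. The lists of these constructs had from 30102 to 70269 peaks and those of Empty_vector from 24527 to 49468, and the part of list length in these shares was not tested.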

How the results depend on the processing

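The number of kept regions changed with the length of the lists: 4683 with whole lists, 91 with lists of 9716 peaks, 142 with lists of equal covered length, and 236 when regions in any Empty_vector list at full length were left out. It was 460 when peaks were ranked by fold enrichment, 389 when a peak had to cover at least 50% of the region (this and the full-length Empty_vector setting were added after seeing the data), and 488 to 548 when a library of the rule was left out. Overlap of at least 50% of the region or of a peak changed no call, since every peak lies within its merged region. The mean excess of kept over other gained regions kept its sign and its side of the threshold under all alternatives, between 12.5 and 24.6 points (leaving out 1 library: 17.6 to 19.7), and within rank groups between 9.52 and 23.4 points (leaving out 1 library: 14.1 to 17.5). Within rank groups the exact sign-flip p-value over 8 constructs rose from 0.00781 to 0.0156 under some alternatives. These were equal covered length, regions in no Empty_vector list, and leaving out ARID1A_DBDmut 1, Empty_vector 3 or ARID1B_S320_G327del 2. There the difference was not positive in every construct. The difference between ARID1B and ARID1A constructs was 24.5 to 49.9 points (leaving out 1 library: 37.7 to 40.8). It passed the threshold only with libraries as units (39.5 points, exact permutation p = 0.0328) and with the replicate block (39.5 points, exact p = 0.04); both treat the libraries of a construct as independent. With the replicate block the F statistic within date group E was 187 and no longer passed (exact p = 0.0833; under other alternatives 18.8 to 684, all past the threshold; leaving out 1 library: 114 to 495). Besides this F statistic and the difference between ARID1B and ARID1A constructs, the block moved no result across the threshold. Libraries of the same replicate number did not deviate together (28 pairs of constructs, correlations from -0.0977 to 0.0801). In date groups A and B, however, the number goes with the date code: replicate 1 libraries are in A and replicate 2 libraries in B. The shares of ARID1A_DDX4 and ARID1A_Y42S moved with the setting, at 1.93% and 3.83% of the kept regions with whole lists, 54.9% and 40.1% with equal covered length, and 5.01% and 2.96% with 50% of the region covered, against 22.3% and 11.2%. The cause was not tested; the peaks that ARID1A_DDX4 had at kept regions were narrow, at medians of 293 and 309 bp, against 920 and 863 bp in ARID1A_WT. The depth of the libraries is unknown, and no value here separates it from the length of a list.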

Other observations

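Some kept regions lay close together. Within 50 kb of another kept region lay 62 of the 484 (12.8%), in 28 stretches of 2 and 2 stretches of 3, while the median distance from a kept region to the next one was 918 kb. One stretch of 3, at chr6:4313325-4359655, held no other gained region. Its kept regions were called by 3, 5 and 9 of the 16 libraries outside the rule. The other, at chr8:134368374-134419618, held 1 further gained region, and its kept regions were called by 7, 14 and 6 libraries. Of the other gained regions, 6.26% lay within 50 kb of a kept region. Within 50 kb of any gained region lay 27.1% of the kept and 23.6% of the other gained regions. The median distance to the nearest region called by all 28 libraries was 61.4 kb for kept and 60.7 kb for other gained regions, and 5.37% of the kept and 7.25% of the other gained regions lay within 10 kb of one. These distances depend on how many regions each set holds and were not tested.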
